A study of Drosophila melanogaster with 12 samples.

Results

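The genes described here are 10 Drosophila melanogaster genes that act in the formation of meiotic DNA breaks, in the synaptonemal complex and in the choice of the crossover pathway. They are mei-W68, mei-P22, c(3)G, c(2)M, ord, mei-218, mei-217, rec, corolla and cona. They were chosen by symbol and by no rule on a measured value, although earlier results of these data were known. Of these genes, 10 of 10 were found among the 14303 genes (18039 features, transposons included) listed in the deposited RNA-seq table.

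The study sequenced ovary RNA to ask how it differs when D1, a protein that binds satellite DNA repeats, is missing. Females were 4 days old, and each of 2 genotypes gave 3 RNA-seq libraries. D1 mutant females carried the allele D1 Kyoto, named LL03310 in the study's methods, over the deficiency D1 Bsc666, while control females carried the same allele over the balancer TM6C, so that the controls were heterozygous for D1. Both genotypes were mutant for chk2 (lok), the checkpoint kinase that halts germ cells with DNA damage, and neither group is a wild type. The sample labels give ovaries, whereas the text that describes the series gives testes. The levels of the marker genes below were those of ovaries.

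The value used for each gene was the authors' mean of normalised read counts over all 6 RNA-seq libraries, D1 mutant and control together. It is a single number per gene, with no value for a library or a genotype, so that no spread, error or test can be given for any level below. A difference between D1 mutant and control ovaries was not analysed here, and whether neighbours in the order of levels differ beyond the spread between libraries cannot be said. In ovaries as a whole, fewer cells of a type and less RNA per cell also cannot be told apart.

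In Drosophila females, meiosis begins in the germarium, at the tip of each ovariole. Cells there build the synaptonemal complex, a zipper-like protein structure in which a lateral element runs along each homologous chromosome and transverse filaments bridge the gap to a central element. A topoisomerase-like enzyme of the Spo11 type then cuts both DNA strands, and the breaks are repaired either as crossovers, which hold homologues together until anaphase, or as noncrossovers.

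The 10 genes spanned a wide range of levels in these ovaries. The highest, c(3)G, had a mean of 4172 normalised counts and the lowest, cona, had 49.36, a ratio of undivided means of 84.5. The median over the 10 genes was 1186 normalised counts, against 360.4 for the median gene of the table. A total of 6 of the 10 lay above that median gene, 2 of them, c(3)G and c(2)M, above the upper quartile of 2662, and none lay below the lower quartile of 10.14. The table holds many genes with few reads, and against genes with a mean of at least 10 the count was 3 of 10. Long transcripts collect more reads than short ones at the same number of molecules, so levels of different genes were compared after division by the length of the longest annotated transcript, unless means are named. On that scale c(3)G and cona differed by 27.5 times, the median of the 10 genes was 228.9 normalised counts per kb against 226.9 for the median gene, and 5 of the 10 lay above it. Taken as 10 separate entries, these genes sat near the middle of the genes of the table per kb, with members on both sides of it. The median of 228.9 lies between mei-217 (250) and mei-218 (207.8), which share most of their exons, as described below. A median per kb with this pair as 1 gene was not computed.

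**Figure D1:**
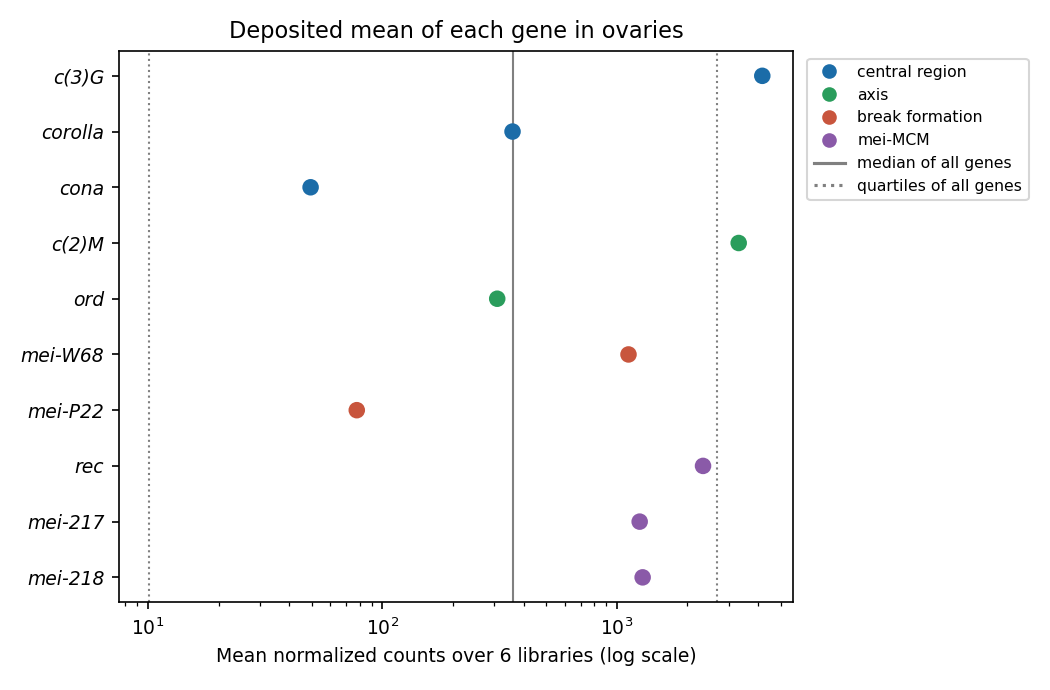
Mean normalised counts over 6 libraries (log axis) for each of the 10 genes, coloured by role, with the median of all genes (360.4, solid line) and the quartiles (10.14 and 2662, dotted lines). The genes c(3)G and c(2)M lie right of the upper quartile, corolla (358.8) lies next to the median, and ord, mei-P22 and cona lie left of it.

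The central region of the synaptonemal complex is represented by 3 genes, which had very unequal levels. The gene c(3)G, on chromosome 3R (15789473 to 15792579, minus strand, genome release 6), encodes the transverse filament protein that spans the space between homologues. Its mean of 4172 normalised counts exceeded that of 83.6% of genes, and it stood at 1587 normalised counts per kb. The gene corolla (X, 17629791 to 17632047, minus strand) encodes a protein of the central element. It had a mean of 358.8 normalised counts and 180.8 per kb. The gene cona (3R, 18385828 to 18386887, plus strand) encodes a small central element protein that loads together with C(3)G, and its annotated coding sequence had 207 codons. Its mean was 49.36 normalised counts, or 57.6 per kb, above 39.7% of genes on the per-length scale. Per kb, c(3)G stood 8.78 times above corolla and 27.5 times above cona, and corolla stood 3.14 times above cona. The same ratios were 8.66, 23.5 and 2.72 when coding length replaced transcript length, so the order was the same under both lengths. Both lengths fall in the same order over these 3 genes, and an effect of length was not tested.

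The chromosome axis is represented by c(2)M and ord. The gene c(2)M (2L, 16303264 to 16305940, plus strand) encodes a kleisin-related component of the lateral element. It had a mean of 3309 normalised counts and 1463 per kb, next to c(3)G in both orders. The ratio of c(3)G to c(2)M was 1.08 per kb of transcript and 0.966 per kb of coding sequence, so the order of this pair turned with the definition of length. The gene ord (2R, 23271257 to 23275536, minus strand) encodes a protein needed for cohesion between sister chromatids in meiosis and for a stable synaptonemal complex. Its mean was 308.7 normalised counts, below the median gene, and its level was 78.86 per kb. The longest annotated ord transcript has 3915 bases, of which the coding sequence takes 1437, and per kb of coding sequence ord stood at 214.8. Accordingly c(2)M stood 18.6 times above ord per kb of transcript and 9.01 times above it per kb of coding sequence.

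The 2 break formation genes differed several fold. The gene mei-W68 (2R, 19456170 to 19459523, plus strand) encodes the Spo11 homologue, the enzyme that cuts the DNA. It had a mean of 1121 normalised counts and 487.6 per kb. The gene mei-P22 (3L, 7244388 to 7245383, plus strand) encodes the partner of mei-W68, related to the B subunit of archaeal type VI topoisomerases. It had a mean of 77.69 normalised counts and 78.0 per kb. Both coding sequences have 331 codons, and the ratio of mei-W68 to mei-P22 was 6.25 per kb of transcript and 14.4 per kb of coding sequence. Neither ratio compares the transcripts of these genes alone, because mei-W68 shares part of its exons with a gene of higher level, as described next.

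The gene mei-W68 starts at the same annotated base as par-1, which encodes a kinase of anterior-posterior polarity, and lies on the same strand. Of its 2300 exon bases, 806 (35%) are also exon bases of par-1, and none of its 993 coding bases is. The mean of par-1 was 10453 normalised counts, and per kb par-1 stood at 1720, 3.53 times the level of mei-W68. Reads in the shared bases fit either gene, and the deposited mean does not show how they were divided. The contribution of par-1 reads to the level of mei-W68 was not tested.

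The remaining 3 genes encode the mei-MCM complex, whose subunits are related to the MCM helicase of DNA replication and which promotes crossovers by opposing the Blm helicase. The gene rec (3R, 15823019 to 15832632, minus strand) encodes the MCM8 relative. Taken as 3 separate entries, rec had the highest mean of the complex, 2331 normalised counts, and the highest level per kb of transcript, 564.2. The other 2 entries share most of their exons, as described below, so this order depends on counting them separately. The genes mei-217 (X, 17136578 to 17142990, minus strand) and mei-218 (X, 17135985 to 17142990, minus strand) had means of 1251 and 1288 normalised counts, a ratio of the undivided mei-218 mean to the mei-217 mean of 1.03. Their levels per kb of transcript were 250 for mei-217 and 207.8 for mei-218, and rec stood 2.72 times above mei-218. Per kb of coding sequence mei-217 stood at 1495 and mei-218 at 361.9, and the coding sequence of mei-217 takes only 837 of the 5005 bases of its annotated transcript. That transcript also holds the 3558 coding bases of mei-218, and reads over all its exons can enter the mei-217 mean. The share of them that was counted for mei-217 is not known. Division by 837 bases alone therefore raises the value of mei-217, and 1495 is not comparable with rec (877.9 per kb of coding sequence).

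**Figure D2:**
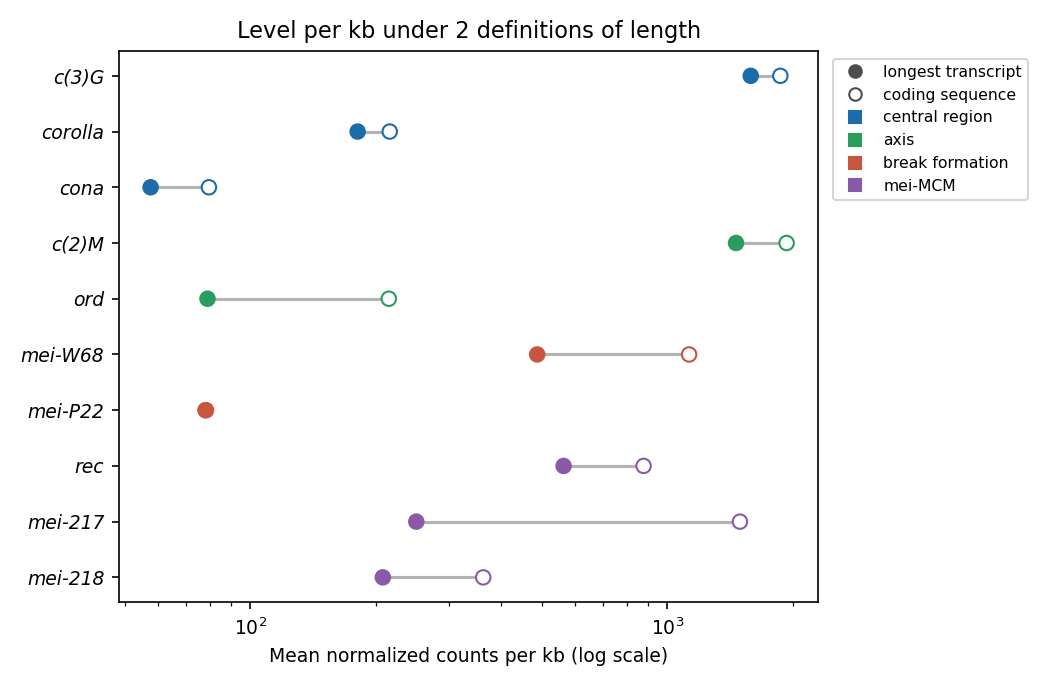
Mean normalised counts per kb (log axis) for each gene, divided by the longest transcript (filled points) or by the coding sequence (open points), coloured by role. The gap between the points is widest for mei-217 (250 and 1495), whose transcript also holds the mei-218 coding sequence, and narrowest for mei-P22 (78.0 and 78.23). By transcript length, cona, mei-P22 and ord lie at the low end.

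The means of mei-217 and mei-218 belong to annotated transcripts that are largely the same. RefSeq annotates the locus as dicistronic, with both reading frames on 1 mRNA. All 5005 exon bases of mei-217 are also exon bases of mei-218, and 1 of the 4 mei-218 transcripts has the same exons as the only mei-217 transcript. The mei-218 exons add 1305 bases, and the whole mei-218 coding sequence of 3558 bases lies inside the mei-217 transcript. No read can therefore be assigned to mei-217 alone from position, and the 2 means are not independent measurements. The stretch in which the reading frames meet is printed because it ties both genes to 1 RNA, with the start codon of mei-218 and the stop codon of mei-217 in capitals, read 5′ to 3′ on the minus strand of the RefSeq release 6 genome at chrX:17141091-17141112.
mei-217/mei-218 junction: ATGtcatctacgaataaacTAG
The mei-218 start codon comes 19 bases ahead of the mei-217 stop codon, which leaves 1 base over 3, so the frames differ and 19 coding bases serve both proteins.

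**Figure D3:**
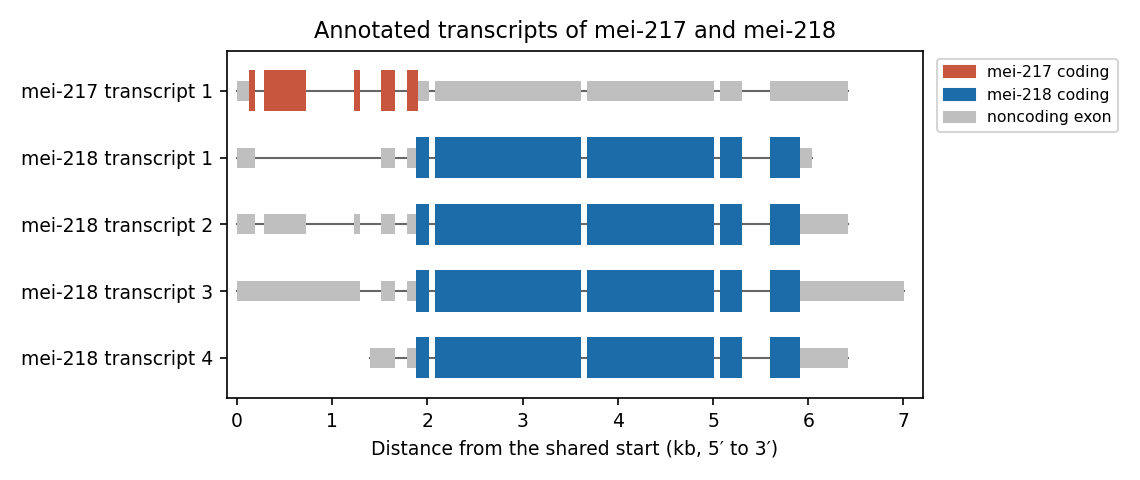
Annotated transcripts of mei-217 and mei-218, drawn to scale against the distance from the shared start in kb, with mei-217 coding parts in red, mei-218 coding parts in blue and noncoding exon parts in grey. The mei-217 transcript holds the whole mei-218 coding sequence downstream of its own.

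Exon overlap with another annotated gene was found for 7 of the 10 genes (70%), and for 5 of 10 it covered at least 100 bases. Over the 14241 annotated genes, 5292 (37.2%) had an exon that overlaps another gene. The overlaps outside mei-W68, mei-217 and mei-218 lie on opposite strands, and none of them reaches the coding sequence of the meiotic gene. The longest joins rec to alpha-Man-IIb, an alpha-mannosidase gene, over 1100 of the 4131 exon bases of rec (26.6%), and alpha-Man-IIb had a mean of 5400 normalised counts and stood at 984.3 per kb, 1.74 times the level of rec. The c(2)M gene shares 140 bases with CG5861, whose mean was 4378 normalised counts. The overlap was 47 bases for cona with Vha100-4, a proton pump gene (mean 35.82 normalised counts), and 22 bases for c(3)G with Uros2 (mean 21.17 normalised counts). The 4 bases that mei-218 shares with CG5004 (mean 1681 normalised counts) are the shortest overlap. Whether counting used the strand of a read is not given in the sources used here, and the share of antisense reads in the levels of rec and c(2)M was not tested. Exons of mei-P22, ord and corolla overlap no other annotated gene, and those of c(3)G (99.2% own bases), cona (94.5%) and c(2)M (93.8%) nearly none. The level ratios of c(3)G, corolla and cona thus rest almost wholly on bases of these genes alone.

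**Figure D4:**
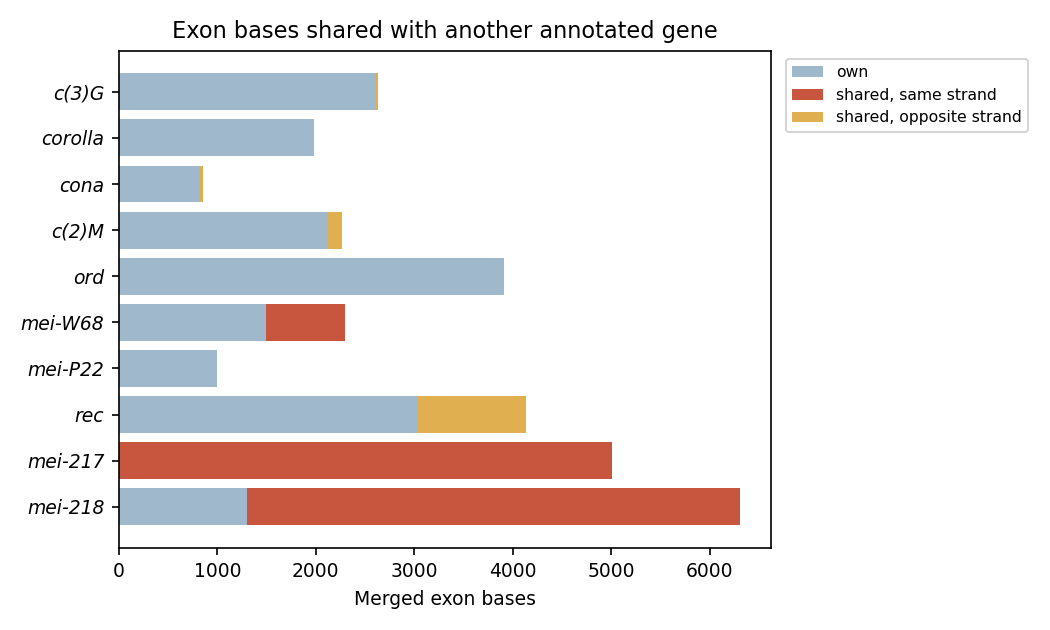
Merged exon bases of each gene, split into own bases, bases shared with a gene on the same strand and bases shared with a gene on the opposite strand. All of mei-217, most of mei-218 (5005 of 6310 bases) and 806 bases of mei-W68 are shared on the same strand, and 1100 bases of rec on the opposite strand.

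The 10 genes do not sit together in the genome, with 3 on chromosome 2, 4 on chromosome 3 and 3 on X. The genes c(3)G and rec lie 30439 bases apart on 3R, on the same chromosome arm as D1 (6.55 Mb and 6.59 Mb from it), and cona lies 9.15 Mb from D1. The nearest upstream neighbour lay head to head, on the opposite strand and transcribed away, for 5 of the 10, against 7604 of 14222 annotated genes (53.5%). This describes orientation and not a shared promoter. The 2 shortest such intervals are printed because each pair of genes is transcribed away from so few bases, read 5′ to 3′ in the direction of the meiotic gene (minus strand) from the RefSeq release 6 genome.
c(3)G and Acyp2, chr3R:15792580-15792687: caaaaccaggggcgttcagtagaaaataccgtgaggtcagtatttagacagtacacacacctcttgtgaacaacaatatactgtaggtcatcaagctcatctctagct
corolla and ND-24, chrX:17632048-17632088: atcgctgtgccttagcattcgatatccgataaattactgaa
Across 108 bases, Acyp2, an acylphosphatase gene, stood at 2445 normalised counts per kb, 1.54 times the level of c(3)G. Across 41 bases, ND-24, a gene of mitochondrial complex I, stood at 4188 normalised counts per kb, 23.2 times the level of corolla. The other head-to-head neighbours were GMF, an actin regulator (309 bases from c(2)M, 1.12 times its level per kb), mRpL50, a mitochondrial ribosomal protein gene (454 bases from mei-P22, 32 times), and CG14309 (755 bases from cona, 128 times). For 4 of these 5 genes, all but c(2)M, the neighbour had over 1.5 times the level of the meiotic gene, as did 43.4% of head-to-head neighbours over all genes. The ribosomal protein gene RpS5a ends 597 bases ahead of the shared start of mei-217 and mei-218 on the same strand, with 50900 normalised counts per kb, 245 times the level of mei-218. Upstream of rec, CG43318 lies 75 bases away on the same strand and stood at 16.2 normalised counts per kb, 0.0287 of the level of rec.

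Short core promoter sequences were searched on both strands in the 250 bases before the annotated start of each gene. The DRE core TATCGATA, the site of the DREF factor, was found for 1 of the 10 genes, rec, and for 7.92% of 14190 genes. It lies wholly within the 75 bases between CG43318 and rec and is shown in capitals, on the minus strand at chr3R:15832681-15832708.
rec, 58 bases before the start: caaagatcgtTATCGATAtttcatgtca
The letters TATAAA were found for 6 of the 10 genes, mei-P22, c(2)M, ord, rec and the shared window of mei-217 and mei-218, against 40.8% of all genes. The letters GAGAG were found for c(2)M and ord, and for 26.2% of all genes. None of the 3 motifs contains another, and a match is a description of the letters and not of a bound site. The 2 intervals printed above hold none of the 3 motifs.

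Other genes of the same pathways were taken from lists and set beside the 10. Of 4 other break formation genes, 2 lay above the median gene per kb. The zinc finger gene trem, needed to bring mei-P22 to chromosomes, stood at 936.9 normalised counts per kb, 12 times mei-P22. The RING finger genes nenya, vilya and narya stood at 733.5, 156.5 and 84.84 normalised counts per kb. The break formation genes mei-P22 and narya were thus both low in these ovaries. By transcript length, trem was the highest of the 6 genes with this role. Per kb of coding sequence trem stood 13.9 times above mei-P22, against 14.4 times for mei-W68, which shares exon bases with par-1. The order of trem and mei-W68 thus turned with the definition of length.

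Among 8 other axis and meiotic cohesion genes, 7 lay above the median gene, with a median of 1595 normalised counts per kb. The cohesin subunits that also act in mitosis lay above the median gene, with 2058 for SMC1, 1893 for SMC3, 4596 for vtd, the Rad21 kleisin, and 1298 for SA. Of these, SA lay below c(2)M (1463). SMC1 stood 1.41 times above c(2)M per kb of transcript and 1.12 times per kb of coding sequence. The meiosis-specific cohesion genes were lower. The level of solo was 467.9 normalised counts per kb, and solo shares exons with vas. The level of sunn was 27.28, and ord stood 2.89 times above sunn per kb of transcript and 7.49 times per kb of coding sequence. The levels of ord and sunn were thus the lowest of the axis and cohesion genes by transcript length.

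The replicative MCM genes stood well above the mei-MCM genes. All 6 lay above the median gene, with levels between 2845 normalised counts per kb (Mcm2) and 8168 (Mcm5). Their median of 4186 was 7.42 times the level of rec and 20.1 times that of mei-218, and the lowest of them was 5.04 times rec. Most exon bases of mei-218 are shared with mei-217, and how shared reads were divided is not known, which limits the ratio of 20.1. The replicative genes serve DNA replication in all dividing and endocycling cells, whereas the mei-MCM genes are known for meiotic recombination. By transcript length, each of the 3 mei-MCM genes lay below each of the 6 replicative ones.

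Most of the listed genes that act after break formation lay above the median gene per kb. Of 5 crossover resolution genes 4 did, including mei-9, the XPF nuclease (854.3 normalised counts per kb), mus312, the Slx4 relative (230.8), and Blm (630). The exception was hdm, a partner of mei-9, with a mean of 4.08 normalised counts (2.793 per kb). Of 8 checkpoint genes 7 did, with pch2, which monitors meiotic chromosome axes, at 2943 per kb. The exception was lok (chk2) itself, at 117.7 per kb, in which both genotypes were mutant. Genes that condense chromosomes and that complete meiosis in the egg had higher medians, of 1412 and 3857 normalised counts per kb, over 7 condensin genes and 8 meiotic completion genes.

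**Figure D5:**
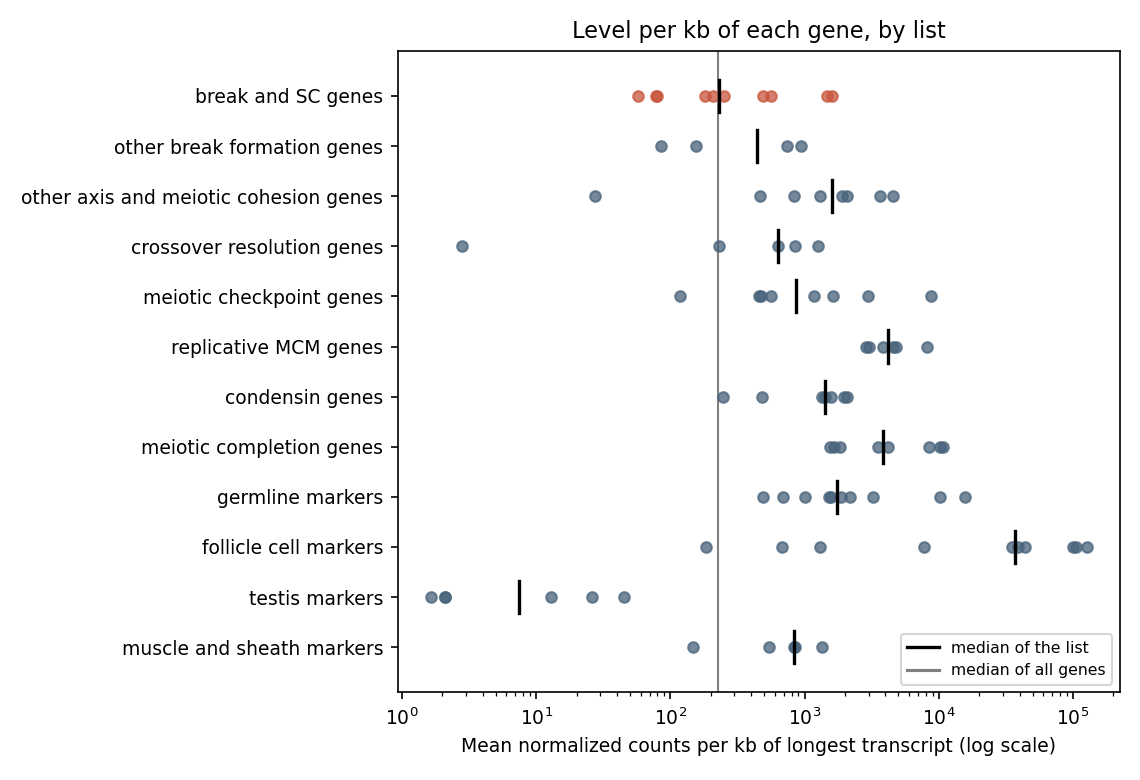
Mean normalised counts per kb of the longest transcript (log axis) for each gene of the lists described, with the median of each list (black bars) and of all genes (226.9, grey line). The break formation and synaptonemal complex genes lie on both sides of the grey line, the 6 replicative MCM genes lie between 2845 and 8168, and the 6 testis markers lie left of it.

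The sample labels name germline cells, and the libraries held RNA of the whole ovary. All 10 germline markers lay above the median gene (485.9 normalised counts per kb for grk to 15548 for nos), and so did 9 of 10 follicle cell markers per kb, with 126981 for Cp36, an eggshell gene. Of 5 muscle and sheath markers 4 did, and of 6 testis markers none did (1.636 for can to 45.14 for bol). D1 itself had a mean of 6038 normalised counts over both genotypes, which does not check the genotype labels, since no value per library was used. The table holds 46044734 normalised counts per library on average, summed over features, and the depth of single libraries is unknown here.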

How the data were processed

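RNA was taken from ovaries of D1 mutant and control females, both chk2 mutant. The authors prepared rRNA-depleted libraries, sequenced them as 150 bp read pairs, cleaned the reads with BBTools, aligned them with STAR and counted genes and transposons with TEtranscripts. The deposited signal used here is the authors' mean of normalised counts over 6 libraries, from DESeq2 1.37.4. The version and strand setting of the counting are not given in the sources used here. The other columns hold the authors' own comparison of D1 mutant and control (log2 fold change, standard error, Wald statistic, p-values and direction marks). They were not used, so no genotype comparison was made. Small RNA libraries were not analysed here.

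Entries with no name (9) and 1 repeated entry were left out. Genes were matched by FlyBase ID to the Ensembl release 115 annotation (BDGP6.54; 14241 of 14303 genes), which gave lengths, positions and overlaps. Its 18 annotated start codons of the 10 genes read ATG in the RefSeq genome of the same release, from which sequences were read. Levels per kb used the longest transcript, and log2 values a pseudocount of 1. Python 3.11.15 with pandas 2.3.3 and numpy 2.4.6 was used. The functions for intervals, lengths and percentiles were checked on made-up values with known answers. The 10 genes and all comparison lists were chosen with earlier results of these data known. The text names all 10 genes, genes that overlap them and members of the lists. Upstream neighbours and motifs were added after the levels were seen. The values of 1 list are not reported here. Symbols alphaEndos and Mst98Ca were not matched. Planned protein comparisons were not run. The alternatives tried were another background, another length, another pseudocount and mei-217 with mei-218 as 1 gene.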

Additional observations from a re-analysis of the deposited data

How the results depend on the processing

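The count of genes above the median gene depended on the background. It was 6 of 10 against all genes and against genes with an annotated coding sequence, and 3 of 10 against genes with a mean of at least 10. The median percentile was 61.2 against all genes, 48.3 against genes with a mean of at least 10 and 55.4 against genes with a coding sequence. The median level of 228.9 normalised counts per kb became 619.9 with coding length and 227 with merged exon length. The median gene per kb (226.9) is given for the longest transcript only, so 619.9 and 227 have no matching value here. With coding length the level of 5 of the 10 genes changed by over 1.5 times and 6 changed place in the order. These coding-length figures include mei-217, whose mean can also hold reads over the mei-218 coding bases. With merged exons only the level of mei-218 changed (204.1), and no gene changed place. With mei-217 and mei-218 added as 1 gene the median level of 1186 became 1121, and the median per kb was not computed this way. The median log2 level was 10.21 with a pseudocount of 1 or of 0.5. No paired analysis was possible because each value is a mean over all libraries, and for the same reason no library could be left out. Levels of low genes such as cona and mei-P22 have the largest relative counting error, which could not be computed.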
